A study of Rattus norvegicus with 16 samples.

Results

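Drd1 and Drd5 encode the D1 and D5 dopamine receptors, which form the D1 class. They were taken by their Ensembl identifiers, ENSRNOG00000023688 for Drd1 and ENSRNOG00000005338 for Drd5, and are 2 of the 32883 genes in the count table. The pair was chosen by its measured counts over the hippocampal subfields, the same levels and contrasts that follow, so the levels and fold changes of Drd1 and Drd5 are given below as a description and carry no test. The counts come from hippocampal tissue of 3-month-old male Wistar rats (n = 4), for which neither the labels nor the methods name a treatment. The granular layer of the dentate gyrus (DG) and the pyramidal layers of 3 fields of Ammon's horn, CA1, CA2 and CA3, were cut out of stained sections by laser capture microdissection, in which a laser frees a chosen layer, and CA2 was recognised by the form and packing of its cells. Each subfield has 4 RNA-seq libraries, replicates 1 to 4.

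D1-class receptors couple to the stimulatory G proteins Gs and Golf, and dopamine binding to them raises cyclic AMP through adenylyl cyclase. D2-class receptors couple to inhibitory G proteins and lower it. In the hippocampus both D1-class receptors are known for their part in synaptic plasticity and memory, and the D5 receptor binds dopamine with the higher affinity of the pair. A captured layer holds the cell bodies of its principal neurons together with interneurons, glia and vessels, so that in such a sample fewer cells of a type and less RNA per cell cannot be told apart.

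The 16 columns of counts summed to 3216512 to 11933279 reads on genes, a 3.71-fold range, and CA1 replicate 4 was the smallest. In CA2 and in DG, replicates 2 and 4 agreed within or close to the sampling noise, with chi-square values, divided by their degrees of freedom, of 1.0002 in CA2 (p = 0.493, chi-square test on the reads) and 1.04 in DG (p = 0.00224), against 2.95 to 44.9 in the other 22 pairs of libraries of a subfield. Both pairs were summed and counted as 1 sample, written replicate 2+4, which left 4 samples each of CA1 and CA3 and 3 each of CA2 and DG. Levels are counts scaled to the size of the library (CPM) after TMM scaling, a correction for differences in library composition, and 3 counts were worth 0.195 to 0.928 CPM. For the 9 subfield markers that could be matched to an identifier, every library of the labelled subfield lay above every library of the others, but all 9 carry a symbol because the study listed them as markers from these samples. No interneuron, glial or endothelial marker could be matched, so the makeup of the layers by those cells was not analysed here.

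Drd1 was highest in DG. It stood at 9.11 CPM in DG replicate 1, 8.83 in replicate 2+4 and 9.22 in replicate 3, a mean of 9.05 ± 0.201 CPM (SD, n = 3). All 3 DG libraries lay above all 11 libraries of the pyramidal layers, and their spread was small against that distance. With replicate 2+4 left out and the low-count filter and scaling redone, the DG mean was 9.32 CPM. The redone scaling also shifts the levels of the libraries that remain.

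In CA2, Drd1 was at 1.88, 2.68 and 2.16 CPM in replicates 1, 2+4 and 3 (2.24 ± 0.408, SD, n = 3). In CA1 it was at 2.17, 2.49, 1.62 and 1.86 CPM in replicates 1 to 4 (2.03 ± 0.375, SD, n = 4). The ranges of CA2 and CA1 overlapped, and their means were 0.207 CPM apart with a combined SD of 0.554, so these neighbours did not differ beyond their spread. CA3 held the lowest Drd1 level, at 1.11, 1.30, 1.16 and 0.972 CPM in its 4 replicates (1.14 ± 0.133, SD, n = 4), below every CA1, CA2 and DG library. The counting intervals of the CA3 libraries, such as 0.357 to 2.12 CPM in replicate 4, were also wider than their spread. Of the sum of the 4 subfield means, DG held 62.6%, CA2 15.5%, CA1 14.1% and CA3 7.85%, so that a Drd1 signal was present in all 4 layers.

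These Drd1 levels rest on few reads. The 4 columns of DG held 50, 76, 77 and 60 Drd1 counts, those of CA1 21, 27, 14 and 6, those of CA2 12, 9, 21 and 17, and those of CA3 9, 15, 11 and 6. Summed over a subfield and scaled, Drd1 in DG was 4.29 times the CA1 value (exact 95% interval 3.27 to 5.68), 3.93 times the CA2 value (2.96 to 5.31) and 7.74 times the CA3 value (5.56 to 11.04). CA1 held 1.81 times as much Drd1 as CA3 (1.21 to 2.73) and CA2 1.97 times (1.30 to 3.01), while the interval of CA1 over CA2, 0.917 (0.638 to 1.32), included 1. These intervals cover counting error only, and reads amplified by PCR are not independent molecules.

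Drd5 was highest in CA1. The 4 CA1 libraries stood at 5.98, 4.88, 7.19 and 2.17 CPM (5.05 ± 2.14, SD, n = 4), which is 86.2% of the sum of the 4 subfield means. Every CA1 library lay above every library of the other subfields, but replicate 4 stood well below the other CA1 libraries. That library held 7 Drd5 counts, with an exact 95% counting interval of 0.871 to 4.46 CPM, which overlapped the interval of CA1 replicate 2 (3.66 to 6.38 CPM) but not those of replicate 1 (4.54 to 7.73) and replicate 3 (5.51 to 9.21). In the same library the CA1 marker Wfs1 was at 616 CPM, against 610.4, 712 and 776 CPM in the other CA1 libraries, and Pex5l was at 375 CPM, the highest of the 4. Without replicate 4 the CA1 mean of Drd5 was 6.01 CPM.

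In CA2, Drd5 was at 0.156, 0.928 and 0.412 CPM in replicates 1, 2+4 and 3 (0.499 ± 0.393, SD, n = 3). In CA3 it was at 0.124, 0.777, 0.106 and 0 CPM in replicates 1 to 4 (0.252 ± 0.355, SD, n = 4), so that 1 library stood apart from the other CA3 libraries. The CA3 mean was 0.0766 CPM without replicate 2, and the CA2 mean 0.281 CPM without replicate 2+4. In DG it was at 0, 0.0649 and 0.120 CPM in replicates 1, 2+4 and 3 (0.0616 ± 0.0600, SD, n = 3). The ranges of CA2 and CA3, and those of CA3 and DG, overlapped, and neither pair of means differed by more than its combined SD (0.247 CPM apart with 0.529, and 0.190 apart with 0.360). The order CA1, CA2, CA3, DG is therefore clear only in its first place.

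Outside CA1 the Drd5 reads were close to the limit of detection. CA1 columns held 58, 53, 62 and 7 counts, CA2 columns 1, 6, 4 and 3, CA3 columns 1, 9, 1 and 0, and DG columns 0, 1, 1 and 0, which makes 180, 14, 11 and 2 counts per subfield. The count of 0 in CA3 replicate 4 allows up to 0.486 CPM and that in DG replicate 1 up to 0.546 CPM, the worth of 3 counts. Summed and scaled, Drd5 in CA1 was 10.2 times the CA2 value (exact 95% interval 5.94 to 19.1), 17.8 times the CA3 value (9.72 to 36.3) and 81.2 times the DG value (22.1 to 675), the last of which rests on 2 DG counts. Without CA3 replicate 2, which held 9 of the 11 CA3 counts, the ratio of CA1 to CA3 became 65.9 (18.0 to 548). Without CA2 replicate 2+4 the ratio of CA1 to CA2 became 17.9 (7.52 to 55.8).

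**Figure D1:**
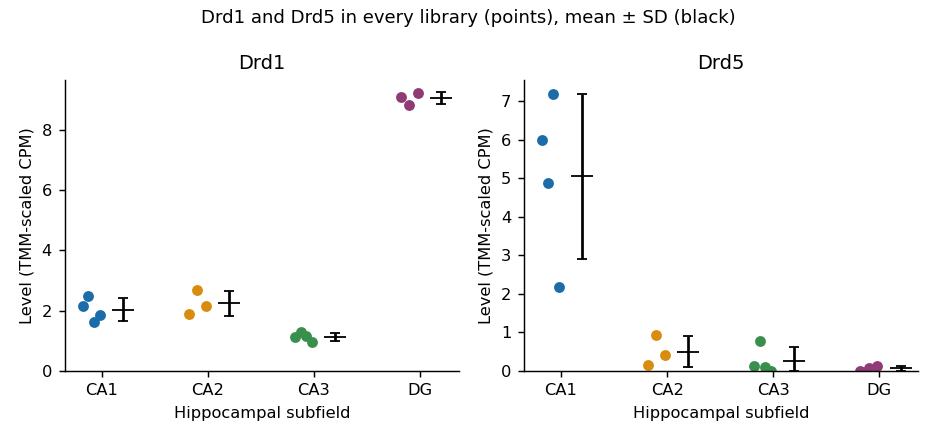
Levels of Drd1 (left) and Drd5 (right) in TMM-scaled CPM by hippocampal subfield, with a point for each library and the mean ± SD in black (n = 4 CA1, 3 CA2, 4 CA3, 3 DG; the lower bar of Drd5 in CA3 is drawn to 0). The 3 DG libraries stand at 8.83 to 9.22 CPM of Drd1 above all others, and the 4 CA1 libraries at 2.17 to 7.19 CPM of Drd5.

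The subfield with the highest level of one receptor was thus not that of the other, and the comparison can be made within a library, where it needs no scaling. Drd5 made up 73.4%, 66.3%, 81.6% and 53.8% of the summed Drd1 and Drd5 counts in CA1 replicates 1 to 4. In DG it made up 0, 0.730 and 1.28% in replicates 1, 2+4 and 3. CA2 libraries held 7.69, 25.7 and 16%, and CA3 libraries 10, 37.5, 8.33 and 0%, so that all CA1 libraries lay above all others. The share of CA1 replicate 4 rests on 7 of 13 counts, with an exact 95% interval of 25.1 to 80.8%. That interval overlapped those of the CA2 and CA3 libraries, such as 18.8 to 59.4% in CA3 replicate 2, so its separation from them is not clear.

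Over all counts of a subfield the Drd5 share was 72.6% of 248 counts in CA1 (exact 95% binomial interval 66.6 to 78.0) and 0.755% of 265 counts in DG (0.0915 to 2.70). It was 19.2% of 73 counts in CA2 (10.9 to 30.1) and 21.2% of 52 in CA3 (11.1 to 34.7). The intervals of CA2 and CA3 overlapped, but the CA3 share rested on replicate 2, without which it was 7.14% (0.877 to 23.5), or 2 of 28 counts. Without CA2 replicate 2+4 the CA2 share was 13.2% (4.41 to 28.1). On the log2 scale, with 0.5 added to both counts, the ratio of Drd5 to Drd1 was 1.18 ± 0.80 (SD) for CA1 and -6.29 ± 0.52 for DG, with CA2 at -2.27 ± 0.79 and CA3 at -2.50 ± 1.28 between them. A share compares libraries with each other. It does not say which receptor mRNA was the more abundant in a layer, because read counts also grow with transcript length and no length was used here.

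**Figure D2:**
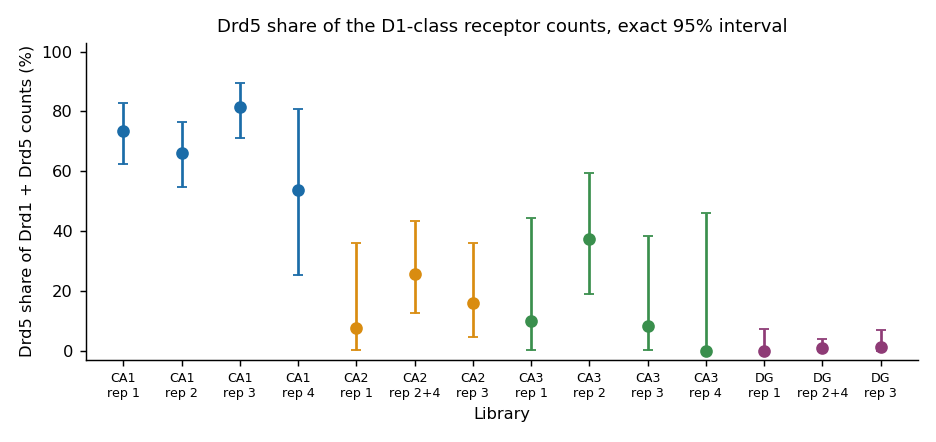
Drd5 share of the summed Drd1 and Drd5 counts in percent, by library and subfield, with exact 95% binomial intervals as bars. The 4 CA1 libraries lie between 53.8% and 81.6%, the 3 DG libraries at 1.28% or below, and the CA2 and CA3 libraries between 0 and 37.5%.

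Both receptors were then followed through the 6 pairwise comparisons of the study, as the log2 fold change of the first subfield over the second in 1 edgeR fit of all libraries. The 6 comparisons share libraries, so their values are not independent of each other. Of the 17174 genes tested, the quasi-likelihood test of edgeR called 14.3% in CA1vsCA2, 24.8% in CA1vsCA3 and 7.65% in CA2vsCA3 at a Benjamini-Hochberg adjusted p under 0.05. Against DG it called 29.4% for CA1, 35.4% for CA2 and 40.2% for CA3. This is the background of each comparison, against which nothing is read for Drd1 and Drd5, since these contrasts chose them.

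Between granular and pyramidal layers the signs of the receptors were opposite. The log2 fold change of Drd1 was -2.12 (SE 0.22) in CA1vsDG, -1.99 (SE 0.23) in CA2vsDG and -2.95 (SE 0.23) in CA3vsDG, and 590, 692 and 314 of the 17174 genes had a lower value. That of Drd5 was 6.01 (SE 0.74), 2.73 (SE 1.08) and 1.94 (SE 1.13) in the same comparisons. With 2 Drd5 counts in DG, these Drd5 values depend on the small count the fit adds, and they are neither estimates nor bounds of the true fold. In pooled counts Drd5 in CA2 was 7.93 times the DG value (exact 95% interval 1.82 to 71.9) and in CA3 4.56 times (0.994 to 42.3), the latter interval including 1. Without CA2 replicate 2+4, CA2 over DG was 4.54 (0.743 to 47.7), and without CA3 replicate 2, CA3 over DG was 1.23 (0.0893 to 17.0).

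Among the pyramidal layers, Drd5 was highest in CA1 and Drd1 lowest in CA3. Drd5 had a log2 fold change of 3.28 (SE 0.53) in CA1vsCA2 and 4.07 (SE 0.52) in CA1vsCA3, with 77 and 72 of 17174 genes higher. Drd1 had -0.13 (SE 0.25) in CA1vsCA2, within its SE of 0, and this value changed sign to 0.046 without CA2 replicate 2+4 and to 0.13 (SE 0.44) with all libraries thinned. It had 0.84 (SE 0.26) in CA1vsCA3 and 0.97 (SE 0.27) in CA2vsCA3, and 0.58 (SE 0.44) and 0.44 (SE 0.48) with all libraries thinned to the smallest, the last within its SE of 0. In CA2vsCA3, Drd5 stood at 0.79 (SE 0.77), which was near its own SE and moved to 2.48 without CA3 replicate 2. With the replicate number as a block and both repeated pairs left out, Drd5 stood at -0.21 (SE 0.93) in CA2vsCA3 and at 4.26 (SE 0.59) in CA1vsCA2.

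**Figure D3:**
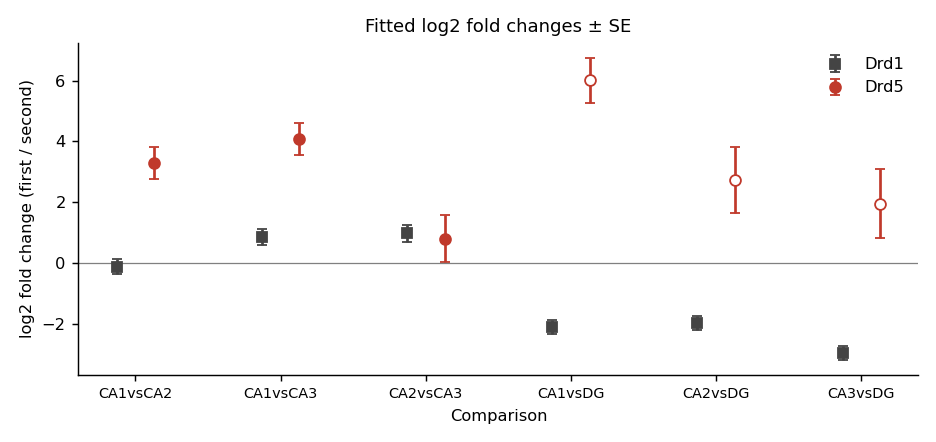
Fitted log2 fold changes of Drd1 (squares) and Drd5 (circles) in the 6 comparisons, first subfield over second, with bars of 1 SE. Open circles mark Drd5 values against DG, where Drd5 had 2 counts in all. Drd1 lies between -2.95 and -1.99 against DG, and Drd5 lies at 3.28 and 4.07 in CA1 over CA2 and CA3.

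The low Drd5 counts of CA2 and CA3 were set beside genes that mark CA1, namely Wfs1, a protein of the endoplasmic reticulum, and Pex5l, an auxiliary subunit of HCN channels. The summed level of both markers was 966 to 1068 CPM in CA1. It was 99.6 to 239 CPM in CA2 libraries, 48.4 to 176 CPM in CA3 libraries and 31.9 to 44.0 CPM in DG libraries. None of these marker counts was 0. Within CA2, the library highest in Drd5, replicate 2+4 at 18.4% of the CA1 mean, was also highest in Wfs1 (19.7%) and Pex5l (31.2%). The CA2 library lowest in Drd5, replicate 1 at 3.09%, was lowest in these markers, at 7.90 and 13.6%, and replicate 3 stood between them in all 3 genes.

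CA3 showed the same split. In replicate 2, Drd5 stood at 15.4% of the CA1 mean, Wfs1 at 15.7% and Pex5l at 20.6%. In the other 3 CA3 libraries Drd5 was at 0 to 2.44%, Wfs1 at 1.27 to 2.03% and Pex5l at 11.8 to 13.9%. The CA1 markers thus had the order of Drd5 in CA2, and in CA3 they were highest in the same library. Among the other 3 CA3 libraries, replicate 1 had the most Drd5 (2.44%) and the least Wfs1 (1.27%) and Pex5l (11.8%). The part of the CA1 markers in the Drd5 reads of CA2 and CA3 was not tested.

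For Drd1 the matching check used DG markers, namely Prox1, a homeobox transcription factor of granule cells, C1ql2, a secreted synaptic protein, and Dsp, the desmosomal protein desmoplakin. Their summed level was 558 to 630.1 CPM in DG, 4.23 to 6.50 CPM in CA1, 5.16 to 16.1 CPM in CA2 and 10.9 to 28.7 CPM in CA3, with none at 0. Drd1 stood at 17.9 to 27.5% of the DG mean in CA1, 20.7 to 29.6% in CA2 and 10.7 to 14.3% in CA3. In the same pyramidal libraries Prox1 was at 0.651 to 5.49% and C1ql2 at 0.228 to 3.59% of their DG means, so that Drd1 was above both in each library. Dsp was at 4.89 to 22.4% and lay above Drd1 in CA3 replicates 2, 3 and 4 (14.7 against 14.3%, 22.4 against 12.8% and 15.5 against 10.7%). Within CA2, the libraries had the same order in Drd1 and Prox1, and replicate 2+4 was highest in Drd1 (29.6%), Prox1 (2.75%), C1ql2 (2.24%) and Dsp (15.3%). Within CA1, replicate 2 was highest in both Drd1 (27.5%) and Prox1 (1.37%), and it was lowest in Dsp (4.89%). Within CA3, replicate 4 had the most Prox1 (5.49%) and the least Drd1 (10.7%). The part of the DG markers in the Drd1 reads of these layers was not tested.

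**Figure D4:**
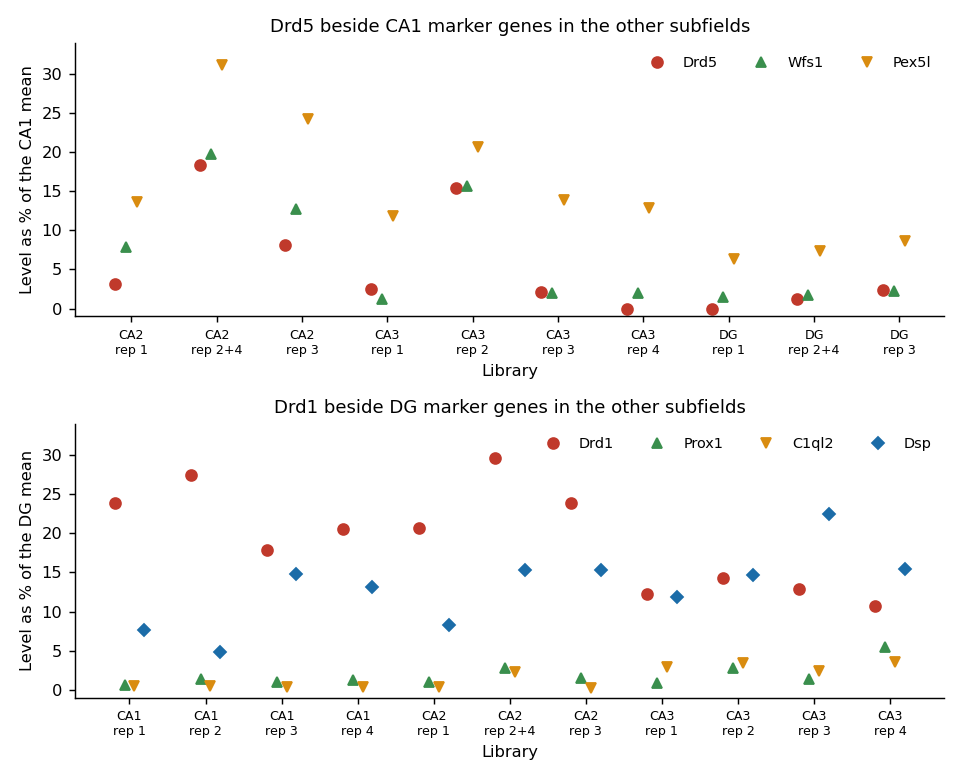
Levels in each library as a percentage of the reference mean, with Drd5 beside the CA1 markers Wfs1 and Pex5l in the other subfields (top, % of the CA1 mean) and Drd1 beside the DG markers Prox1, C1ql2 and Dsp in the pyramidal layers (bottom, % of the DG mean). Drd5 is highest in CA2 replicate 2+4 (18.4%) and CA3 replicate 2 (15.4%), as are the markers within each subfield, while Drd1 stands at 10.7 to 29.6%, above Prox1 (5.49% or less) and C1ql2 (3.59% or less) in each library and below Dsp in CA3 replicates 2, 3 and 4.

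The genes with profiles most like each receptor were found by the root mean square (RMS) difference of log2 CPM over the 14 libraries. Each gene was first centred on 1 value, the mean of its 4 subfield means, which keeps the differences between subfields. Of 13042 genes compared, 208 had a symbol, all taken from the study's own marker list. Nearest to Drd1 among the genes with a symbol were Ptchd1 (RMS 0.33), a membrane protein with a patched domain, Frmd4b (0.34), a scaffold protein with a FERM domain, Ahcyl2 (0.34), a relative of adenosylhomocysteinase, Tshz1 (0.35), a zinc finger transcription factor, and Lrrtm4 (0.37), a postsynaptic organiser. All 5 were listed by the study for DG, as were 164 of the 207 symbols other than the receptors. Over all compared genes, 6 lay nearer to Drd1 than Ptchd1 and 20 nearer than Lrrtm4. Ptchd1 had the Drd1 order CA3 below CA2 and CA1, at 2.80 ± 0.591 CPM in CA3, 6.59 ± 0.109 in CA2, 7.51 ± 1.48 in CA1 and 31.4 ± 2.79 in DG.

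Nearest to Drd5 among them were Ndst4 (RMS 0.46), a heparan sulfate sulfotransferase, Arhgap12 (0.55), a GTPase-activating protein, Pex5l (0.59), Olfm3 (0.63), a secreted olfactomedin protein, and Ldb2 (0.64), a cofactor of LIM-domain transcription factors. All 5 were listed for CA1, as were 22 of the 207. No other compared gene lay nearer to Drd5 than Ndst4, which stood at 70.6 ± 7.71 CPM in CA1 against 8.84 ± 1.41 for CA2, 5.34 ± 4.23 for CA3 and 3.05 ± 0.725 for DG. The distance between Drd1 and Drd5 was 2.24, and 12904 of the 13042 genes lay nearer to Drd1 than Drd5 did.

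The other genes of the pathway were listed by role, as D2-class receptors, G protein, cyclase and protein kinase A genes, phosphodiesterases, receptor kinases and partners, Gq and phospholipase C genes, genes of dopamine synthesis and clearance, and other Gs-coupled receptors. Of 86 listed symbols, 4 could be matched to an identifier, the G protein and cyclase genes Gnal and Adcy1 and the phosphodiesterases Pde1b and Pde7b. None of the 3 D2-class receptors could be matched, and they were not analysed here. All 4 matched genes carry a symbol because the study listed them for DG, so their comparisons with DG are a description.

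Gnal, which encodes the alpha subunit of Golf, was at 97.3 ± 8.21 CPM in DG and at 5.88 ± 1.69 in CA1, 8.48 ± 1.11 in CA2 and 10.46 ± 3.62 in CA3. Adcy1, an adenylyl cyclase activated by calcium and calmodulin, was at 865.5 ± 93.8 CPM in DG and at 81.9 ± 17.2, 134.8 ± 18.8 and 47.4 ± 21.2 in CA1, CA2 and CA3. Pde1b, a phosphodiesterase activated by calcium and calmodulin, was at 178 ± 14.6 CPM in DG against 40.1 ± 3.15, 26.6 ± 3.99 and 24.1 ± 3.33. Pde7b, which breaks down cyclic AMP, was at 40.1 ± 3.11 CPM in DG against 6.44 ± 1.31, 3.89 ± 1.48 and 3.35 ± 0.787. As for Drd1, the DG libraries of these 4 genes lay above all pyramidal libraries, with log2 fold changes in CA1vsDG of -3.96 for Gnal, -3.41 for Adcy1, -2.69 for Pde7b and -2.16 for Pde1b beside -2.12 for Drd1.

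Between pyramidal layers the 4 genes were tested in the same edgeR fit, with p-values adjusted over all 17174 genes. As 4 of 86 listed symbols, all matched through the DG list, they do not stand for the pathway and are no support for the receptor levels. In CA1vsCA3, 3 of the 4 were higher in CA1 and 1 was lower, where 12.1% of all genes were called higher in CA1 and 12.7% lower. Pde7b (log2 fold change 0.89, adjusted p = 0.00518), Pde1b (0.73, adjusted p = 9.75e-05) and Adcy1 (0.79, adjusted p = 0.0127) were higher in CA1, and Gnal (-0.72, adjusted p = 0.0164) was lower. The median of the 4 was 0.76, beside -0.00029 for all genes. Without CA1 replicate 3 the calls of Gnal (adjusted p = 0.0519) and Adcy1 (adjusted p = 0.0543) were lost, and without CA3 replicate 4 that of Gnal (adjusted p = 0.0678). That CA3 library was highest within CA3 in Adcy1 (73.4 CPM), Gnal (15.2 CPM) and the DG marker Prox1 (5.49% of its DG mean). Adcy1, Pde1b and Pde7b had the order of Prox1 over the CA3 libraries, and all 4 genes had it within CA2. Within CA1 none had it. The part of the DG markers in these values was not tested.

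In CA1vsCA2, 1 of the 4 was higher in CA1, 1 was lower and 2 did not pass, where 6.31% of all genes were called higher in CA1 and 8.0% lower, and their median was 0.06 beside -0.01 for all genes. Pde1b was higher in CA1 (0.58, adjusted p = 0.00359) and Adcy1 lower (-0.73, adjusted p = 0.0411). Pde7b stood at 0.62 (adjusted p = 0.0863, and 0.0301 with the replicate block on all 16 columns) and Gnal at -0.46 (adjusted p = 0.221). The Adcy1 call was lost when any of 8 libraries was left out, namely CA1 replicates 1, 2 and 4, CA2 replicates 2+4 and 3, CA3 replicate 3 and DG replicates 2+4 and 3, with adjusted p from 0.0502 to 0.140. In CA2vsCA3, Adcy1 was higher in CA2 (1.52, adjusted p = 0.000171) and the other 3 did not pass (adjusted p = 0.623 to 0.674), where 4.16% of all genes were called higher in CA2 and 3.48% lower, and the median of the 4 was 0.21 beside 0.01. Drd1 stood at 0.97 there.

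**Figure D5:**
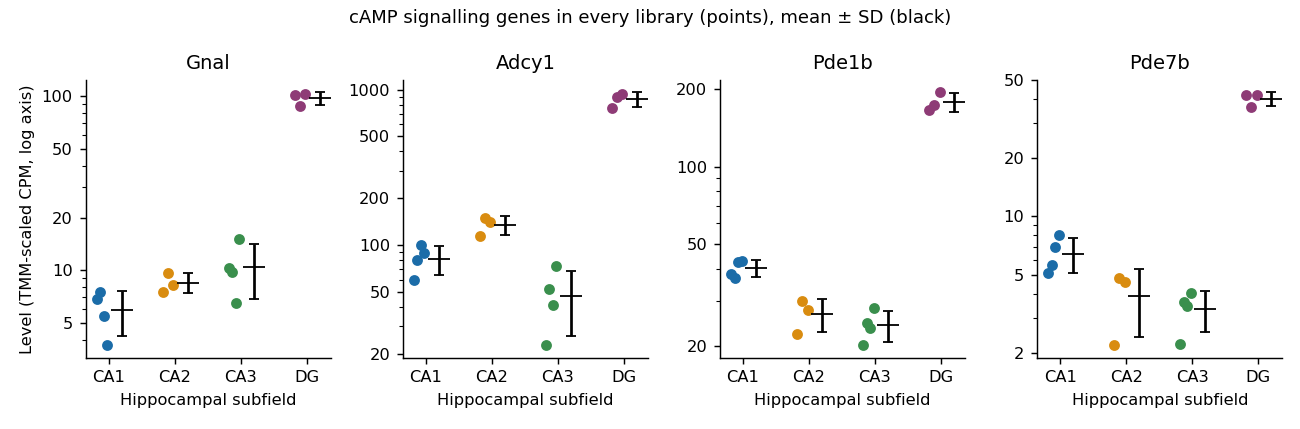
Levels of Gnal, Adcy1, Pde1b and Pde7b in TMM-scaled CPM on log axes, with a point for each library and the mean ± SD in black (n = 4 CA1, 3 CA2, 4 CA3, 3 DG). The DG libraries lie above all others for each gene, and in the pyramidal layers Adcy1 is lowest in CA3 (47.4 CPM) and Pde1b highest in CA1 (40.1 CPM).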

How the data were processed

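The authors made stranded total-RNA libraries, sequenced paired ends, aligned the reads to Rnor6 with STAR and deposited raw counts per Ensembl gene. Whether counting used strand is not given in the sources used here, so counts of overlapping or near-identical genes are uncertain. The deposited tables of the authors' comparisons (fold changes, p-values) were not used. Symbols came from the study's marker list (287 identifiers), and none of its values was used. A listed CA1 marker is not reported here. The 2 receptors and all lists were chosen with earlier results of these data known.

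Counts of the 14 libraries entered 1 edgeR 4.0.16 quasi-likelihood fit (R 4.3.3, limma 3.58.1) with TMM scaling, 1 coefficient per subfield, 17174 genes with more than 10 counts in all and Benjamini-Hochberg adjustment. The SE is the log2 fold change over the square root of F. The p-values measure the spread between these samples. Pairs of columns with a chi-square under 1.5 times its degrees of freedom were summed. Plots and intervals used Python 3.11.15 with scipy 1.17.1. The procedure was tested on simulated counts. Named genes are the 2 receptors, measured D2-class receptors, up to 3 highest and 3 lowest called list members in CA1vsDG, the 5 nearest genes with a symbol (mean of at least 1 CPM, prior count 2) and markers. Alternatives were size factors by median of ratios, DESeq2 1.42.0, filterByExpr, no low-count filter, all 16 columns, thinning to 3216512 counts, replicate blocks and leaving out each library.

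The labels give the 4 subfields of a replicate number 1 shared prefix, and the study had 4 rats, so same-numbered samples were taken as 1 rat in the replicate blocks. The main fit has no term for the rat, so its SEs and p-values leave this pairing out. Deviations of same-numbered libraries from their subfield means correlated at -0.11 to 0.65 (median 0.24, over 0.1 in 19 of 24 pairs), and those of different numbers at a median of -0.08. Such deviations cancel within a subfield, so positive values for the same number push those of different numbers negative. Replicate 1 gave 0.56 to 0.65 and the other numbers -0.11 to 0.41. CA3 replicate 2 correlated at 0.37 with DG replicate 3 and at -0.07 with DG replicate 2. The pairing stands out for replicate 1 only.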

Additional observations from a re-analysis of the deposited data

Results flagged for a closer look

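In CA3, the Drd5 level of replicate 2 (0.777 CPM, 9 of the 11 CA3 counts) stood far from the other 3 libraries, with a gap to the nearest of them of 0.841 of the whole range. This gap is above Dixon's 95% critical value for 4 samples, which is used here only to point out the library, since these levels chose the pair and carry no test. Chance alone marks about 1 in 20 such groups, and 14 groups were checked. The CA1 markers Wfs1 and Pex5l were also highest in this CA3 library, and their part in the Drd5 value was not tested.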

How the results depend on the processing

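In 22 alternatives (14 of them leaving out 1 library), 617 of 664 values kept their direction and call or stayed within the replicate SD, 28 moved further, 3 changed sign, 14 lost a call and 2 gained one. Many of these values come from leaving out a library outside the comparison, which changes them little. Drd5 in CA2vsCA3 also counted as kept at 0.0011 without CA2 replicate 2+4, beside 0.79 in the main fit. The total is thus no measure of how firm the values are. The replicate block with repeated pairs left out (12 libraries) gave log2 fold changes of -3.08 for Drd1 in CA3vsDG, and for Drd5 4.26 in CA1vsCA2, -0.21 in CA2vsCA3 (a change of sign) and 1.85 in CA2vsDG. With the block on all 16 columns, where a repeated pair may stand in the wrong rat, Pde7b passed in CA1vsCA2. The blocks changed no other call of a named gene. The block on all 16 columns called 3850 of all genes in CA1vsCA2 and 2615 in CA2vsCA3. The same 16 columns without a block gave 2858 and 1737, and the main fit, with the repeated pairs summed, gave 2458 and 1313.

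Thinning to the smallest library gave Drd1 means of 1.49 CPM in CA3 and 8.63 in DG and 0.0 for Drd5 in DG. It gave Drd1 log2 fold changes of 0.13 in CA1vsCA2 (a change of sign), 0.58 in CA1vsCA3, 0.44 in CA2vsCA3 and -2.49 in CA3vsDG, and for Drd5 7.17 in CA1vsDG, 1.74 in CA2vsCA3 and 4.15 in CA2vsDG. With 2 added to both counts the DG log2 ratio was -4.98. With filterByExpr 1 signalling gene was called in CA1vsCA2. In that comparison DESeq2 gave adjusted p = 0.113 for Adcy1 and 0.0497 for Pde7b. Thinning ended the Gnal call in CA1vsCA3 (adjusted p = 0.129). The causes were not tested.

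Leaving out 1 library, with the low-count filter and scaling redone, gave Drd1 means in DG of 9.02 to 9.32 CPM. The Drd1 log2 fold change in CA1vsCA2 ran from -0.26 to 0.046, positive without CA2 replicate 2+4. Drd5 ran from 3.78 to 5.76 in CA1vsCA3, 0.0011 to 2.48 in CA2vsCA3 (lowest without CA2 replicate 2+4, next 0.48 without CA3 replicate 3), 1.94 to 3.14 in CA2vsDG and 0.25 to 2.35 in CA3vsDG, with 5.76, 2.48 and 0.25 without CA3 replicate 2 and 1.94 without CA2 replicate 2+4. Signalling genes called ran from 1 to 2 in CA1vsCA2 and 2 to 4 in CA1vsCA3.

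Drd5 outside CA1 rests on 27 counts in all and Drd1 in the pyramidal layers on 168, which limits the precision of their values.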
